A study of Mus musculus with 24 samples.

Results

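The effect of distant pancreatic cancer cells on pancreatic stellate cells (PSC) after 24 h was examined in the standard co-culture model, which is represented by 6 of the 24 RNA sequencing libraries of the study. The 6 libraries were taken by their titles as PSC of KPC standard co-culture and PSC of the matching control, with 3 libraries in each group, and libraries that carry the same replicate number were treated as a pair. PSC in both groups were wild-type (WT) cells from pooled pancreata of C57BL/6J mice aged 7 to 10 weeks, with 4 to 10 pancreata of both sexes per isolation, and were used at passage 1 to 2. They were seeded on a culture-insert membrane with pores of 1 µm, and after 24 h the medium was changed and the insert of the co-culture group was moved into a well with KPC cells growing on its bottom, whereas control PSC were kept without KPC cells. KPC cells are 1 line of murine pancreatic cancer cells from a genetically engineered mouse in which Cre recombinase is driven by the p48 promoter in the pancreas. RNA of the PSC was sequenced, with an input of 450 ng per library. The comparison addresses which PSC genes differ after 24 h with KPC cells that share the medium but not the membrane, against PSC without KPC cells. Soluble signals were not tested as such.

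PSC are resident fibroblast-like cells of the pancreas, which in injury and cancer become contractile, proliferate and deposit extracellular matrix. Tumour cells and PSC influence each other through secreted growth factors, cytokines and matrix components, and cancer-associated fibroblasts (CAF) are commonly divided into contractile myofibroblastic CAF (myCAF) and cytokine-secreting inflammatory CAF (iCAF). Expression is given as FPKM, the number of sequenced fragments per kilobase of transcript, scaled to the total of counted fragments in a library, so that levels of genes of unequal length can be compared. Values of single libraries are always given in the order of replicates 1, 2 and 3.

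The 6 libraries held between 17567311 and 23366570 fragments, and between 12277 and 13117 genes exceeded an FPKM of 1. The pair, not the co-culture, was the main source of variation: it accounted for 78.4% of the variation in log2(FPKM + 0.5) over the 12859 tested genes, against 10.2% for co-culture and 11.4% for the remainder. The labelled cell type was reflected by high levels of the mesenchymal genes Col1a1, Vim and Pdgfrb, with 131 to 182 FPKM of Pdgfrb, while Lrat, the enzyme that forms stored retinyl esters in stellate cells, was listed at 0 in all libraries and Gfap, a classical stellate cell marker, reached at most 0.0458 FPKM. Acta2, the smooth muscle actin of activated PSC, was listed at 3129, 581 and 1122 FPKM in co-culture and at 5963, 824 and 1509 FPKM in controls, so that both libraries of replicate 1 stood far above the others. Among 18 markers of KPC-type epithelium, 4 were listed at 0 in all 6 libraries, Cldn4, Esrp1 and Grhl2 among them, and 14 stayed below 1 FPKM throughout. The summed level of the list was nevertheless higher in co-culture in every pair, with 10.9, 20.4 and 30.4 FPKM against 7.34, 15.3 and 21.3 FPKM in controls. Its 3 tested members, Sox9, Muc1 and Lcn2, had a median log2 difference of 0.65 and none was called, and the part of KPC-derived RNA in the differences reported here was not tested. In bulk RNA, fewer cells of a type and less RNA per cell cannot be told apart.

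After 24 h of standard co-culture, 157 of 12859 tested genes (1.22%) were differentially expressed at an adjusted p under 0.05, of which 85 (0.661%) were up-regulated and 72 (0.56%) were down-regulated. The up-regulated genes included secreted matrix and matrix-modifying proteins (Spp1, Vcan, Timp1, Fn1), growth factors (Hgf, Ereg, Fgf10) and chemokines (Ccl6, Ccl9, Cxcl14, Cx3cl1), and the down-regulated genes included the hyaluronan-degrading Cemip, the matricellular Ccn5, the ligands Bmp4, Jag1, Vegfc and Vegfd, and the muscle myosin Myh11. Of the 157 genes, 105 belonged to none of the written gene lists. Counts of called list members are to be read beside the 1.22% of all tested genes, and list medians beside -0.01. Differences reached 6.87-fold (Spp1), and 36 of the up-regulated and 16 of the down-regulated genes changed by more than 1 on the log2 scale. All 157 genes moved in the same direction in 3 of 3 pairs, as did 38.3% of all tested genes. The 3 co-culture libraries lay on one side of the 3 controls in 72 of the 157 genes, and in 7.73% of all tested genes.

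**Figure D1:**
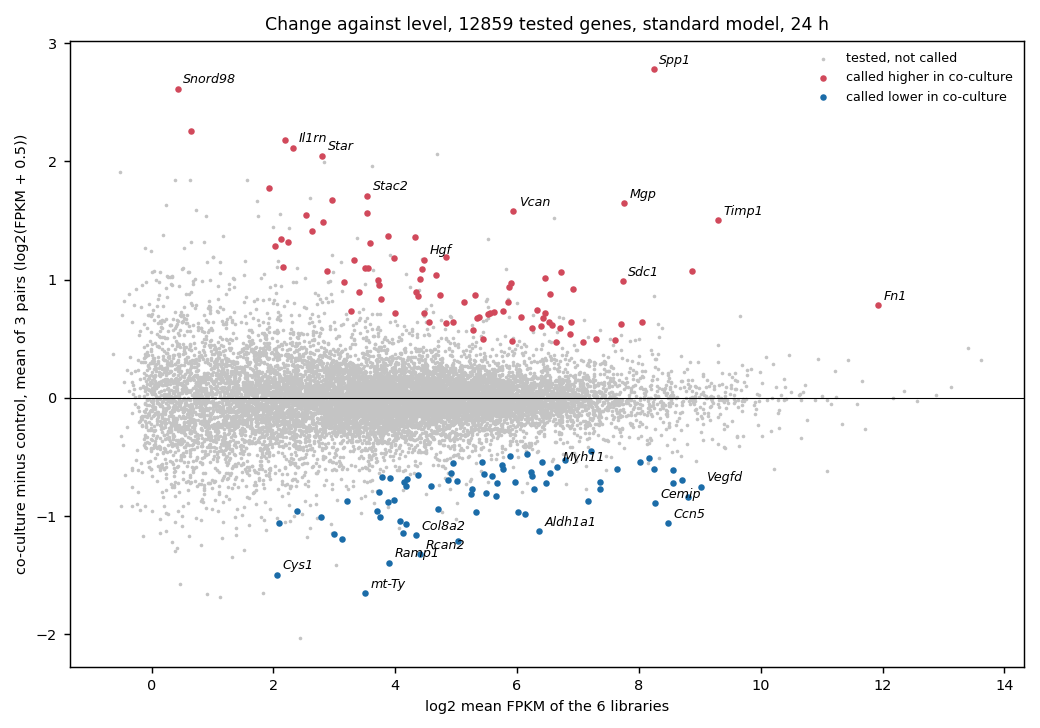
The x axis gives the log2 of the mean FPKM over the 6 libraries and the y axis the co-culture minus control difference in log2(FPKM + 0.5), averaged over 3 pairs, for each of the 12859 tested genes. The 85 red genes were called higher and the 72 blue genes lower in co-culture, with Spp1 at 2.78 and mt-Ty at -1.65 as the extremes.

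These calls rest on the pairing of libraries and on the settings of the fit. With the block kept, limma called 0 genes without the intensity trend and 0 without a filter on low values. It called 9 genes with the 12 libraries of the standard model in one fit, and Spp1, Timp1, Fn1, Mgp, Cemip and Ccn5 were not among them. Without the replicate block, limma called 0 of the 12859 genes, with 371 genes at an unadjusted p under 0.05, since the spread between pairs then counts as error. With the block, 1932 genes had an unadjusted p under 0.05, and limma's voom on the recovered fragments with the same block called 361 genes, 158 up-regulated and 203 down-regulated, so that the share of up-regulated genes was 43.8% instead of 54.1%. Leaving out replicate 1 raised the number of called genes to 967 of 12488 (7.74%).

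On the log2(FPKM + 0.5) scale the largest increase was that of Spp1, which encodes osteopontin, a secreted phosphoprotein that binds integrins and CD44. It is located on chromosome 5 (104435118 to 104441050, plus strand, GRCm38) and was measured at 276, 869 and 349 FPKM in co-culture and at 20.8, 250.4 and 48.0 FPKM in controls. All co-culture libraries exceeded all controls, although the control of replicate 2 approached the lowest co-culture library. The difference was 2.78 ± 0.311 on the log2 scale (SE, n = 3 pairs, adjusted p = 0.022), and it was 2.32 without replicate 1 and 3.27 without replicate 2. Spp1 was not called by limma in one fit of the 12 libraries of the standard model or of all 24 libraries (adjusted p = 0.477 and 0.325).

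Vcan, the gene of the large chondroitin sulfate proteoglycan versican (chromosome 13, 89655312 to 89742509, minus strand), was higher in every pair. It was expressed at 76.1, 93.1 and 107 FPKM in co-culture and at 24.3, 34.9 and 32.4 FPKM in controls, with a wide gap between the groups. The increase of 1.58 ± 0.0888 (log2, SE, n = 3 pairs) corresponds to 2.99-fold, with an adjusted p of 0.00971. Only Timp1 reached an adjusted p as low. Chst11, a sulfotransferase that acts on the chondroitin chains carried by versican, was also up-regulated, from 8.03, 8.75 and 9.12 FPKM in controls to 20.8, 16.9 and 15.8 FPKM, a 1.99-fold difference (adjusted p = 0.0304). It was the 1 called gene among 24 tested chondroitin and dermatan sulfate enzymes, beside 1.22% called of all tested genes. The median difference of these enzymes was -0.03 on the log2 scale, beside -0.01 over all tested genes.

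Of the 16 tested genes around versican and hyaluronan, 3 were up-regulated and 1 was down-regulated, with a median log2 difference of 0.28. Over all tested genes, 0.661% were up-regulated and 0.56% were down-regulated. Tnfaip6, which links hyaluronan to protein chains, rose 2.15-fold, from 2.88, 2.86 and 2.08 FPKM to 5.69, 8.08 and 5.03 FPKM. Fbln1, a fibulin found in fibronectin fibres and in versican-rich matrix, rose 1.6-fold (adjusted p = 0.0271). In contrast, Cemip, which drives the degradation of hyaluronan, fell from 593, 237 and 377 FPKM to 291, 138 and 206 FPKM, by 0.89 on the log2 scale (adjusted p = 0.0144). The level of Cemip in co-culture replicate 1 lay above the control of replicate 2, so that the groups overlapped although each pair showed the decrease. The hyaluronan synthase Has2 was measured at 13.03, 7.19 and 8.90 FPKM in co-culture and at 10.7, 2.69 and 3.87 FPKM in controls, which did not pass the test (adjusted p = 0.122).

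Among matrix glycoproteins, 3 of 36 tested genes were up-regulated, Spp1, Fn1 and Sparcl1, and 4 were down-regulated, beside 0.661% and 0.56% of all tested genes. The median of the list was 0.04. Fibronectin (Fn1), one of the most abundant transcripts, was present at 3854, 6188 and 4671 FPKM in co-culture and at 1955, 3633 and 3075 FPKM in controls, a 1.72-fold increase (adjusted p = 0.0274) with no overlap of the groups. Sparcl1 rose 1.51-fold and lost its call in voom on the fragments (adjusted p = 0.0608). The decreased members were Ccn5, a matricellular protein of the CCN family, Lama5, a laminin chain of basement membranes, and the elastic fibre components Mfap4 and Fbln5. Ccn5 dropped from 649, 323 and 477 FPKM to 269, 165 and 248 FPKM, 2.08-fold lower with an adjusted p of 0.0144, and the highest co-culture library remained below the lowest control. Mgp, a matrix protein that inhibits calcification, increased 3.13-fold to 48.1, 607 and 271 FPKM, but its controls, at 11.3, 287 and 76.5 FPKM, overlapped with the co-culture libraries with pair 1 far lower in both groups.

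The collagen chains showed no common movement. Of 24 tested chains only Col8a2, a network-forming chain, was called, beside 1.22% called of all tested genes. It was listed at 2.50, 21.8 and 12.5 FPKM in co-culture and at 6.74, 53.6 and 24.5 FPKM in controls (2.24-fold lower, adjusted p = 0.02). The median over the 24 chains was 0.04. Col1a1 lay between 7722 and 10708 FPKM in co-culture and between 7452 and 9305 FPKM in controls (adjusted p = 0.746). The small proteoglycan asporin (Aspn) fell 2.09-fold, while the transmembrane heparan sulfate proteoglycans syndecan-1 (Sdc1) and syndecan-4 (Sdc4) were up-regulated. Sdc1 was uniform within each group, at 301, 266 and 281 FPKM against 151, 138 and 139.6 FPKM, an increase of 0.98 ± 0.0661 on the log2 scale (adjusted p = 0.0113). Sdc4 rose 1.54-fold from 169.8, 194 and 131 FPKM to 251, 274 and 231 FPKM.

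Timp1, an inhibitor of matrix metalloproteinases (chromosome X, 20870166 to 20874735, plus strand), was measured at 1149, 924 and 699.9 FPKM in co-culture and at 469.5, 321 and 216 FPKM in controls. The groups did not overlap, and the 2.83-fold increase had an adjusted p of 0.00971. Its relative Timp3, an inhibitor held in the matrix, moved in the other direction, from 81.1, 45.0 and 64.4 FPKM to 55.4, 22.9 and 32.4 FPKM (adjusted p = 0.0274). Serpine2, an inhibitor of serine proteases, rose 1.39-fold. These were the 3 called genes among 34 tested proteases and inhibitors, with a median of 0.12, beside 1.22% called of all tested genes. The protease Mmp3 was listed at 10.3, 66.2 and 36.4 FPKM in co-culture and at 0.708, 33.0 and 8.53 FPKM in controls, a difference of 2.06 that did not pass the test (adjusted p = 0.0602).

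**Figure D2:**
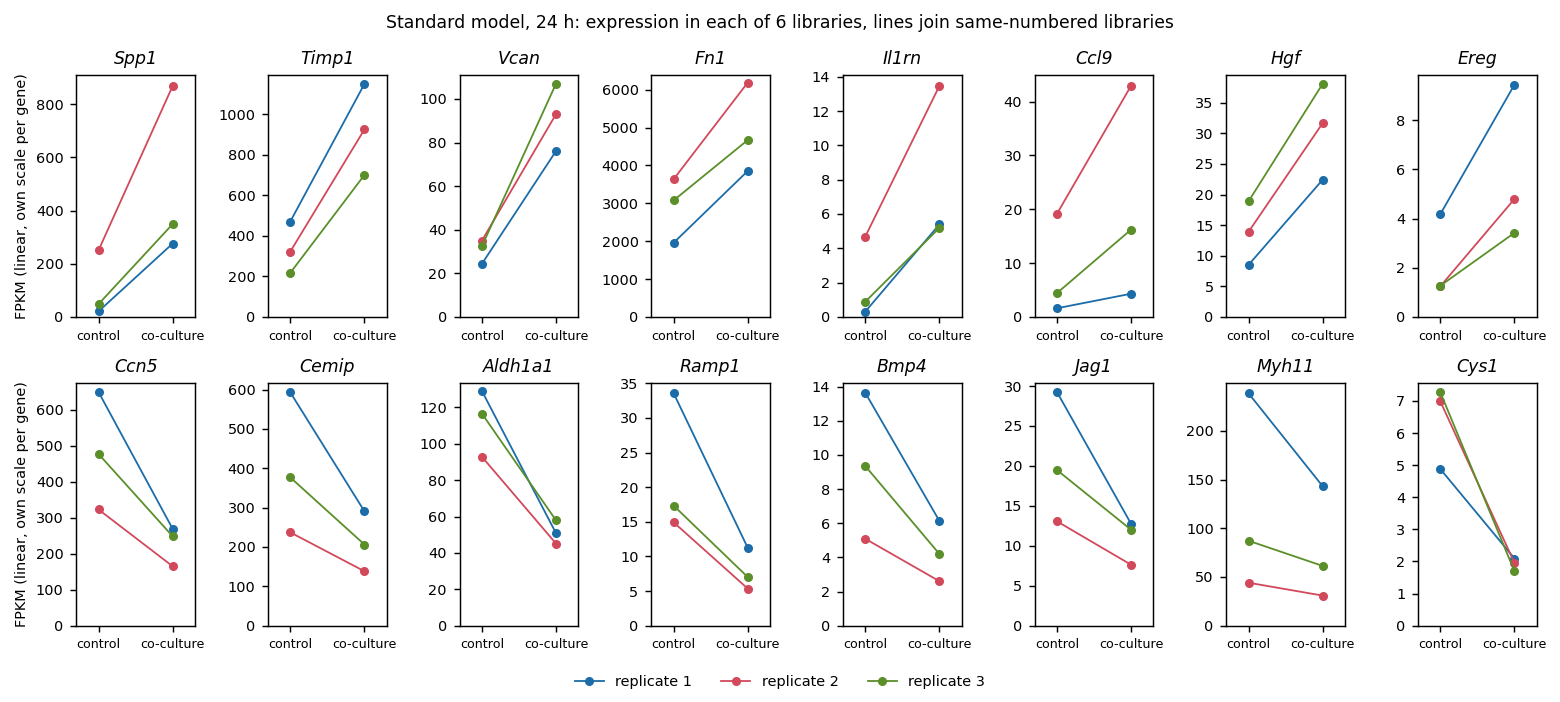
Each panel shows the FPKM of 1 gene on a linear axis of its own that starts at 0, for control (left) and co-culture (right), with 1 line per replicate pair. Lines of Spp1, Timp1, Vcan, Fn1, Il1rn, Ccl9, Hgf and Ereg rise and those of the other 8 genes fall in all 3 pairs, with Vcan at 76.1 to 107 FPKM above controls at 24.3 to 34.9 FPKM.

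Growth factors were regulated in both directions. In the list of HGF, FGF, PDGF, VEGF and IGF ligands and receptors, 2 of 39 tested genes were up-regulated and 3 were down-regulated, with a median of -0.015 (log2). The shares over all tested genes were 0.661% and 0.56%. Hgf, the ligand of the receptor tyrosine kinase Met on epithelial cells (chromosome 5, 16553495 to 16620152, plus strand), rose from 8.51, 13.9 and 18.9 FPKM to 22.4, 31.7 and 38.1 FPKM. Every co-culture library exceeded every control, and the difference was 1.17 ± 0.106 (adjusted p = 0.0147). The PSC themselves expressed Met at only 1.71 to 4.58 FPKM. Fgf10, a mesenchymal ligand of the epithelial form of Fgfr2, reached 17.02, 23.2 and 19.7 FPKM against 9.40, 12.6 and 13.99 FPKM in controls and was close to the threshold (adjusted p = 0.049). Fgfr2 was listed at 9.70 to 12.6 FPKM in co-culture and at 11.3 to 18.9 FPKM in controls (adjusted p = 0.268).

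Vegfc and Vegfd, ligands that drive growth of lymphatic vessels, both decreased. Vegfd, the more abundant of them, fell from 367, 741 and 836 FPKM to 209, 487 and 466 FPKM (1.69-fold, adjusted p = 0.02), with overlap between the groups and the lowest level in pair 1 of both. Vegfc fell from 20.8, 26.0 and 19.8 FPKM to 12.2, 14.3 and 13.3 FPKM (1.64-fold, adjusted p = 0.0356). Fgf9 was decreased 2.09-fold at a low level of 0.793, 4.42 and 2.80 FPKM in co-culture against 2.47, 8.90 and 6.34 FPKM, a call that was not retained by voom on the fragments (adjusted p = 0.0714). Adm, the gene of the vasodilating peptide adrenomedullin, fell 1.71-fold, and Ramp1, a receptor component for the related peptide CGRP, fell 2.63-fold from 33.6, 14.9 and 17.3 FPKM to 11.2, 5.35 and 7.01 FPKM.

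Epiregulin (Ereg), a ligand of the EGF receptor, was up-regulated from 4.18, 1.24 and 1.27 FPKM to 9.45, 4.80 and 3.42 FPKM (2.43-fold, adjusted p = 0.0362). Replicate 1 was highest in both groups, so the control of pair 1 exceeded the co-culture library of pair 3. Errfi1, a feedback inhibitor of the EGF receptor, rose 2.09-fold from 29.2, 124 and 66.1 FPKM to 81.9, 198 and 136 FPKM (adjusted p = 0.0297). The receptor gene Egfr was listed at 53.1, 100.1 and 87.9 FPKM against 35.2, 86.8 and 75.0 FPKM (adjusted p = 0.177). Ereg and Errfi1 were the 2 called genes among 9 tested of this list, whose median was 0.09, beside 1.22% called of all tested genes. Among ERK feedback and immediate early genes, 2 of 33 were up-regulated, namely the ERK phosphatase Dusp5 (1.66-fold, adjusted p = 0.044) and the AP-1 subunit Fosl1 (1.86-fold, adjusted p = 0.0379). The list had a median of 0.30, and 18 of its 33 members were higher in 3 of 3 pairs, beside 17.5% of all tested genes.

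Chemokines showed 5 up-regulated and no down-regulated gene among 22 tested, beside 0.661% and 0.56% of all tested genes. Their median was 0.38, beside -0.01. Ccl6 and Ccl9 attract myeloid cells, and Cxcl5 attracts neutrophils. Ccl9 rose from 1.60, 19.1 and 4.41 FPKM to 4.31, 42.9 and 16.2 FPKM (2.58-fold, adjusted p = 0.0233). Ccl6 was listed at 3.54, 32.3 and 2.76 FPKM against 0.695, 6.30 and 1.13 FPKM (3.19-fold, adjusted p = 0.0425). In both genes pair 2 was far above the others in either group, and the groups overlapped. Cxcl14, a chemokine of the iCAF list, rose 2.81-fold to 3.81, 20.6 and 8.43 FPKM from 1.63, 5.56 and 2.33 FPKM. Cx3cl1, a membrane-anchored chemokine, rose 1.82-fold (adjusted p = 0.0233). Cxcl5 was called with 1.14, 60.3 and 24.3 FPKM against 0.256, 34.4 and 9.32 FPKM, but voom on the fragments gave an adjusted p of 0.394.

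Il1rn, which encodes the antagonist of the IL1 receptor, increased from 0.303, 4.67 and 0.883 FPKM to 5.39, 13.5 and 5.19 FPKM (4.34-fold, adjusted p = 0.0293). The groups did not overlap, and voom on the fragments gave an adjusted p of 0.0541. Most controls of Il1rn were below the filter limit of 1 FPKM. The gene was thus tested because its co-culture libraries were high, and its call is no independent evidence of an increase. Il1r1, the signalling receptor for IL1, rose 1.52-fold from 46.3, 79.0 and 72.6 FPKM to 68.8, 121 and 113 FPKM. Il33, an alarmin of the IL1 family, was called at 2.56, 27.3 and 19.8 FPKM against 0.235, 14.2 and 5.69 FPKM, but its call was lost in voom (adjusted p = 0.29). Its receptor gene Il1rl1 was listed at 2.78, 1.36 and 0.920 FPKM in co-culture and at 0.873, 0.175 and 0.133 FPKM in controls and was below the filter. Vcam1, an adhesion molecule for leukocytes, was down-regulated 1.45-fold (adjusted p = 0.0297). Il1rn and Vcam1 were the called genes among 20 tested of the NF-kB and IL1 list (median 0.19), and Il33 and Il1r1 those among 25 tested of the IL6 and STAT3 list (median 0.31). Of all tested genes, 1.22% were called, and their median was -0.01.

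Several of these genes, among them Spp1, Il1rn, Ccl6 and Ccl9, are also expressed by macrophages, and macrophage markers differed strongly between pairs. The summed level of the 18 macrophage markers was 49.8, 541 and 77.8 FPKM in co-culture and 58.6, 699 and 90.4 FPKM in controls. It was thus highest in replicate 2 of both groups and lower in co-culture than in the control of every pair. None of the 12 tested macrophage markers was called, and their median was -0.26. Without replicate 2, the increase of Spp1 and Ccl9 passed the test (adjusted p = 4.65e-06 and 0.0114), that of Ccl6 did not (adjusted p = 0.0783), and Il1rn was below the filter and not tested. This fit kept just 2 pairs, so these adjusted p say little about the spread of each gene between pairs. They cannot decide whether the increases depend on replicate 2. The part of macrophages in the level of these genes was not tested.

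**Figure D3:**
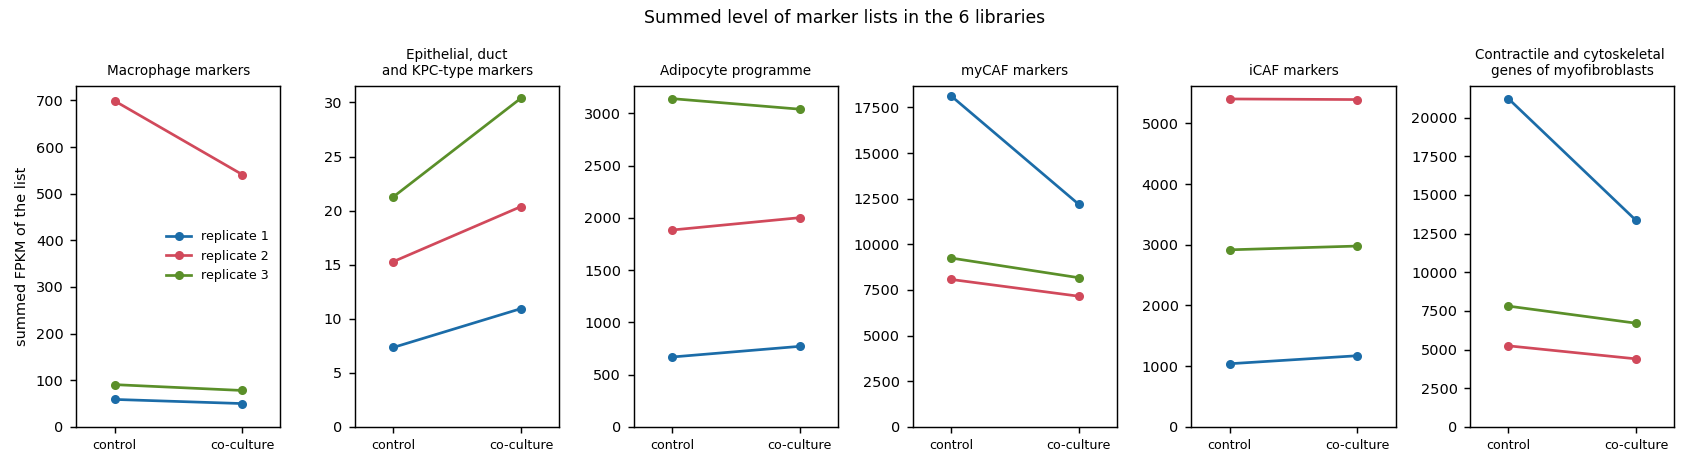
Each panel gives the summed FPKM of a list on a linear axis from 0, with 1 line per replicate pair from control (left) to co-culture (right). Macrophage markers reach 541 and 699 FPKM in replicate 2 and at most 90.4 FPKM in the others, whereas the contractile list is highest in replicate 1.

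Contractile and cytoskeletal genes of myofibroblasts tended to be lower in co-culture, but just 1 of 19 tested genes, smooth muscle myosin Myh11, was called. Myh11 was measured at 143, 30.8 and 61.3 FPKM in co-culture and at 238, 44.1 and 87.2 FPKM in controls (1.5-fold lower, adjusted p = 0.0304), and the adjusted p was 0.0549 with scaling by the median of gene ratios and 0.0525 without replicate 3. The list had a median of -0.42, and 16 of 19 members were lower in 3 of 3 pairs, beside 20.7% of all tested genes. Acta2, with the values given above, differed by -0.62 ± 0.113 and did not pass the test (adjusted p = 0.0646). Voom on the fragments, however, called 8 of the 19 genes as lower, beside 1.58% of all genes it tested. None of the 15 tested myCAF markers was called (median -0.16), and 2 of 20 iCAF markers were, namely Cxcl14 and Pi16, a peptidase inhibitor made by fibroblasts (median 0.395). Of all tested genes, 1.22% were called. The integrin subunit Itga8, which marks smooth muscle-like mesenchymal cells, fell 1.95-fold from 10.8, 5.19 and 5.50 FPKM to 4.80, 2.43 and 2.86 FPKM (adjusted p = 0.044).

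**Figure D4:**
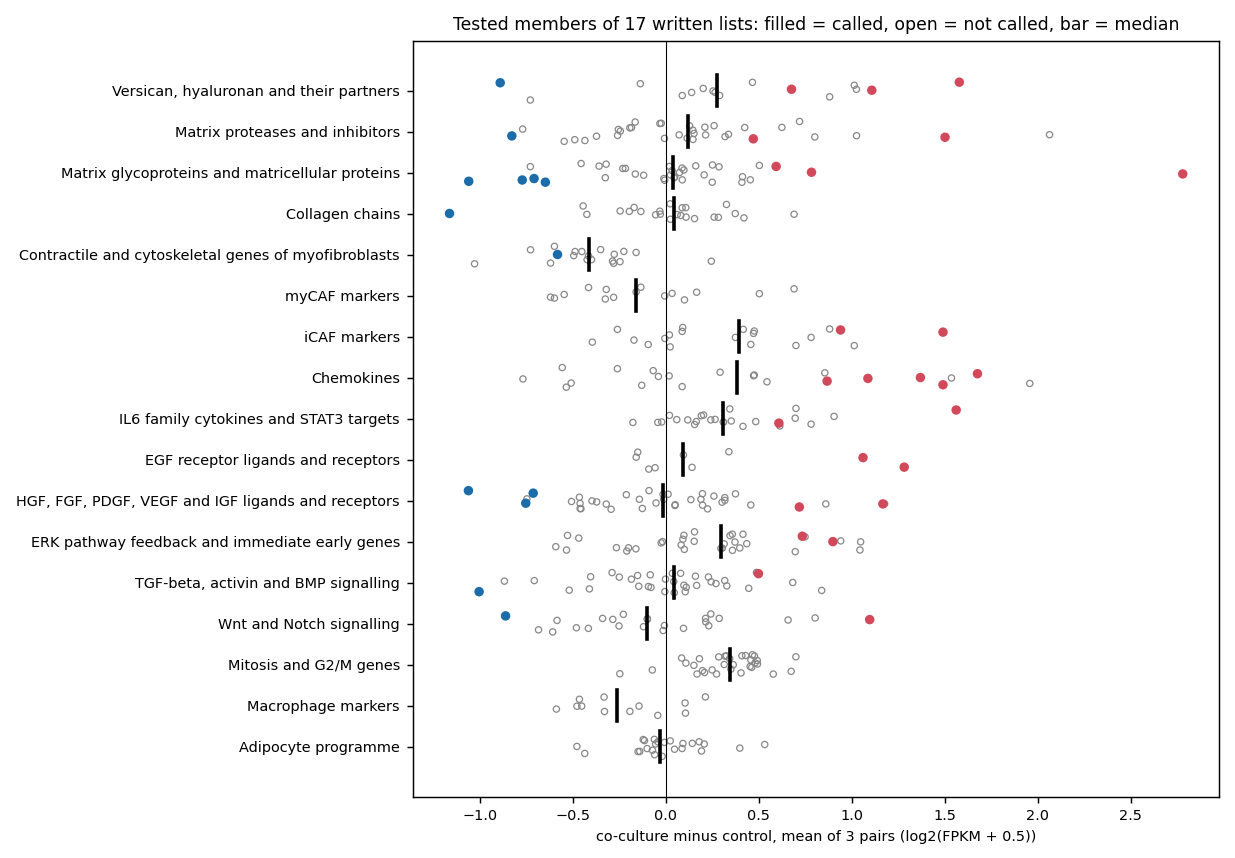
The x axis gives the co-culture minus control difference in log2(FPKM + 0.5) and each row a written list, with 1 point per tested gene, red or blue if called higher or lower and open if not called, and a bar at the median. The contractile list has its median at -0.42 and the chemokines at 0.38, while collagen chains lie around 0.04.

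Developmental ligands were changed in single genes. Tgfb1, a main activator of PSC, rose 1.41-fold from 39.8, 38.6 and 28.8 FPKM to 58.6, 52.4 and 41.1 FPKM (adjusted p = 0.044), and Bmp4 fell 2.01-fold from 13.6, 5.09 and 9.36 FPKM to 6.13, 2.60 and 4.20 FPKM (adjusted p = 0.0304). They were the only called genes among 35 of TGF-beta, activin and BMP signalling, with a median of 0.04. In the Wnt and Notch list, 1 of 24 tested genes was up-regulated and 1 was down-regulated (median -0.10). The shares over all tested genes, for both lists, were 0.661% and 0.56%. The secreted Wnt antagonist Frzb rose 2.14-fold from 4.09, 9.79 and 8.70 FPKM to 11.97, 20.6 and 15.6 FPKM. The Notch ligand Jag1 fell 1.82-fold from 29.3, 13.1 and 19.5 FPKM to 12.7, 7.62 and 12.01 FPKM.

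Genes of metabolism and signalling inside the cell were found among the largest differences. Star, which carries cholesterol into mitochondria, rose from 0.921, 5.11 and 1.81 FPKM to 6.23, 17.5 and 10.2 FPKM (4.13-fold, adjusted p = 0.0144). Acsl4, an acyl-CoA synthetase for polyunsaturated fatty acids, rose 2.05-fold from 14.4, 18.6 and 16.4 FPKM to 27.0, 40.3 and 36.5 FPKM, and it was the 1 called gene among 35 of fatty acid metabolism (median -0.04). Prkg2, a cGMP-dependent protein kinase, rose 3.42-fold, with 13.1, 2.13 and 3.34 FPKM against 3.38, 0.347 and 0.548 FPKM. Most of its controls were below the filter limit of 1 FPKM. Prkg2 was thus tested because its co-culture libraries were high, and its call is no independent evidence of an increase. Aldh1a1, an enzyme of retinoic acid synthesis, fell from 129, 92.9 and 117 FPKM to 50.8, 45.1 and 57.9 FPKM, 2.18-fold lower without overlap. Rcan2, an inhibitor of calcineurin, decreased uniformly from 28.2, 30.7 and 32.8 FPKM to 11.3, 12.6 and 11.7 FPKM (2.5-fold, adjusted p = 0.0138). Nedd9, an adaptor of focal adhesions, fell 2.21-fold, Prex2, an exchange factor for Rac, fell 2.29-fold, and Map3k7cl and Fam124a fell 2.31-fold and 2.22-fold. The ER protein Mcfd2, a cargo receptor, rose 1.56-fold and the stress transcription factor Xbp1 rose 1.41-fold, which were 2 of 23 in their list (median 0.16). The counts of this list and of fatty acid metabolism stand beside 1.22% called of all tested genes. Ddit4, an inhibitor of mTORC1, rose 1.61-fold (adjusted p = 0.049).

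A list of 7 genes was taken from those that the study names as changed in this comparison, of which 5 were up-regulated and 1 was down-regulated here. They were chosen for their change in these same samples and are no independent evidence. Besides Vcan, Chst11 and Acsl4, these were Stac2, 6030408B16Rik and Cys1. Stac2, an adaptor protein of calcium channels, was listed at 17.2, 17.8 and 18.9 FPKM against 4.37, 7.75 and 3.93 FPKM (3.27-fold). The gene 6030408B16Rik (chromosome 15, 101293212 to 101297426) rose 4.52-fold from 0.595, 2.35 and 1.11 FPKM to 4.25, 11.4 and 7.72 FPKM. Cys1, a protein of the primary cilium, fell 2.82-fold from 4.88, 6.99 and 7.27 FPKM to 2.09, 1.95 and 1.69 FPKM. Tnfsf15, a cytokine of the TNF family, was measured at 6.11, 1.46 and 1.85 FPKM against 0.644, 0.527 and 0.565 FPKM and did not pass the test (adjusted p = 0.118), while voom on the fragments called it (adjusted p = 0.00695). Its controls were all below 1 FPKM, so it entered both tests only through the co-culture libraries, and the voom call is no independent evidence.

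Short non-coding RNA genes among the calls were less certain. The small nucleolar RNAs Snord98 and Snora30 were listed at 3.27, 3.29 and 1.503 FPKM and at 3.27, 2.30 and 3.01 FPKM in co-culture, and at 0 in all or all but 1 of the controls. Both passed the filter on low values only through the co-culture libraries, where they were high. Their calls and their place among the largest differences are therefore no independent evidence of an increase. Their differences depend on the pseudocount, and with 0.1 in place of 0.5 they were 4.72 for Snord98 and 3.79 for Snora30, above the 2.79 of Spp1, as they were in voom on the fragments, with 2.89 and 3.01 against 2.66. The mitochondrial tRNA gene mt-Ty was listed at 1.59, 9.58 and 5.83 FPKM against 9.19, 27.2 and 14.9 FPKM. None of these 3 calls was retained by voom on the fragments, with adjusted p of 0.199, 0.177 and 0.293.

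Promoter sequences of RefSeq (GRCm38.p6) were found for 62 of the 85 up-regulated and 55 of the 72 down-regulated genes, and for 9359 of all tested genes. In the 250 bases before the transcription start nearest to the annotated gene start, both strands were searched for motifs chosen after the values were seen. The AP-1 motif TGANTCA was found in 3 of 62 up-regulated and 3 of 55 down-regulated genes, beside 3.8% of all tested genes. The CRE motif TGACGTCA, which does not overlap with the AP-1 letters, was found in 1 of 62 and 1 of 55, beside 2.84%. The TEAD motif GGAATG was found in 7 of 62 and 6 of 55, beside 10.4%, and the ATF4 composite motif TGATGCAA in 1 of 62 and 0 of 55, beside 0.566%. The CArG box of serum response factor was found in 1 of 62 and 2 of 55, beside 1.16%. All shares were thus close to those of all genes or rested on 1 to 3 genes. The promoters of 4 called genes with a match are shown, 3 of them up-regulated (Il1rn, Timp1, Dusp5) and 1 down-regulated (Fhl2, a LIM-domain protein of the actin cytoskeleton, shown for its motif after its values were seen), with the motif in capitals. Il1rn holds 1 AP-1 motif (chr2:24336610-24336859, plus strand), Timp1 1 TEAD motif (chrX:20869916-20870165, plus strand), Dusp5 2 adjacent CArG boxes (chr19:53528895-53529144, plus strand) and Fhl2 1 CArG box (chr1:43196762-43197011, minus strand).
Il1rn: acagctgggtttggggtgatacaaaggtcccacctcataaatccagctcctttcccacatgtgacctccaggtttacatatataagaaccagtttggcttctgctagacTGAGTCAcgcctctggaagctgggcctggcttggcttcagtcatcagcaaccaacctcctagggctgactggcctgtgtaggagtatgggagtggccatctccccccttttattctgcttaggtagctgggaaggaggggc
Timp1: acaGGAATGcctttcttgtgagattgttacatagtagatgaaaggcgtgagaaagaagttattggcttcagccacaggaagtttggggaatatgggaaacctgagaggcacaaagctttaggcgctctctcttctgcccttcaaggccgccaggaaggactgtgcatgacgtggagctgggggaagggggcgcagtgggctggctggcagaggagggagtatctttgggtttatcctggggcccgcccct
Dusp5: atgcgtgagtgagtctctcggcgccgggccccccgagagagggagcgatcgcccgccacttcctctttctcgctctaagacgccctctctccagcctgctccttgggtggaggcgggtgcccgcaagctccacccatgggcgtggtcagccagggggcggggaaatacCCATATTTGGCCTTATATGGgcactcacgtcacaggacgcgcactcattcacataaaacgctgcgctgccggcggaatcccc
Fhl2: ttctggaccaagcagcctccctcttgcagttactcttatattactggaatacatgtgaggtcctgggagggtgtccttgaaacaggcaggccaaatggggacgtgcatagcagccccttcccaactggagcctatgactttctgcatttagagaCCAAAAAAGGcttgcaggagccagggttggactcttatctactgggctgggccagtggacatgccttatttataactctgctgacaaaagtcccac
A match in such a window is a description of letters, and binding of a factor was not measured here.

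The response was then compared with libraries that were not used above, namely PSC of the standard model after 72 h and of the inverse model after 24 h, each with controls of their own. In the inverse model, KPC cells grew on the underside of the same membrane and were present from the seeding of PSC on, and the RNA input was 120 ng. At 72 h, 82 of the 85 up-regulated genes (96.5%) were higher and 71 of the 72 down-regulated genes (98.6%) were lower in co-culture, beside 51.9% and 81.7% of all tested genes that were higher or lower at 24 h. Only Ccl6 passed the test at 72 h, where 1 of 12863 genes (0.00777%) was called in all. The median difference at 72 h was nevertheless 1.05 for the 85 and -0.741 for the 72 genes (log2). At 72 h, 1388 genes had an unadjusted p under 0.05 with limma. The median SE over all tested genes was 0.172, against 0.125 at 24 h. In the inverse model at 24 h, 83 of 85 (97.6%) and 72 of 72 (100%) moved in the same direction, beside 53.5% and 76.4% of all tested genes.

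In the inverse model 88 of 12827 tested genes (0.686%) were called at 24 h, and 38 genes were called in both models, 24.2% of the genes called in the standard and 43.2% of those called in the inverse model. Shared up-regulated genes included Spp1 (2.78 and 3.73 on the log2 scale in the standard and the inverse model), Timp1 (1.501 and 2.08), Star (2.05 and 2.28), Stac2 (1.71 and 1.71) and Frzb (1.10 and 1.03). Shared down-regulated genes included Ramp1 (-1.40 and -1.60), Nedd9 (-1.15 and -1.34), Itga8 (-0.96 and -1.93), Prex2 (-1.20 and -1.51) and Myh11 (-0.58 and -1.31). Vcan differed by 1.49 at 72 h and by 1.16 in the inverse model (adjusted p = 0.15 and 0.118), and Hgf by 1.20 and 0.58 (adjusted p = 0.165 and 0.144).

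The test of the difference between the models at 24 h called 0 of 13554 genes with limma, with 512 at an unadjusted p under 0.05, and the test of 72 h against 24 h in the standard model called 0 of 13694 genes, with 424. None of the 157 genes was therefore shown to respond differently in either setting, which does not show that the responses were alike. The genes that went the other way were Snord98, Snora30, Atp6v1c1 and Lbh at 72 h and Snora30 and Atp6v1c1 in the inverse model. The protein-coding genes Atp6v1c1 and Lbh were named after their values were seen. Atp6v1c1, a subunit of the vacuolar proton pump, rose from 8.69, 7.38 and 5.17 FPKM to 17.9, 16.3 and 12.5 FPKM in the standard model at 24 h (adjusted p = 0.02), while its difference was -1.42 at 72 h (adjusted p = 0.533) and -0.81 in the inverse model (adjusted p = 0.314).

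**Figure D5:**
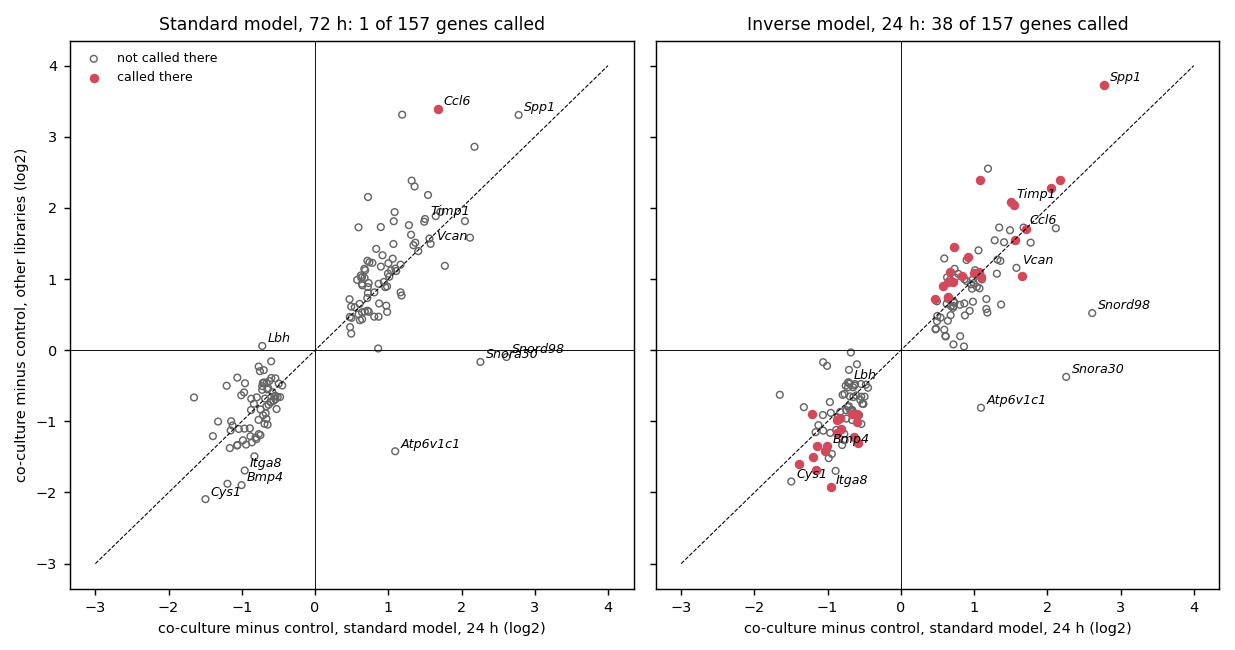
Each of the 157 called genes is placed by its co-culture minus control difference (log2) in the standard model at 24 h on the x axis and at 72 h (left) or in the inverse model at 24 h (right) on the y axis, with filled points for genes called there too, and the dashed line marks equal differences. On the left 1 point and on the right 38 points are filled, and Atp6v1c1 lies at -1.42 and -0.81 on the y axes.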

How the data were processed

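RNA libraries were made from polyA RNA. The authors aligned reads to GRCm38.p6 with HISAT2 2.0.5, counted fragments per gene with featureCounts 1.5.0-p3 with default parameters, which disregard strand, and deposited FPKM values of 53801 genes, of which 53706 matched the GENCODE M21 annotation. Fragment numbers were recovered from the FPKM and mean transcript lengths, and between 96.7% and 97.3% of low values were whole within 0.1. They set the precision of low values.

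Genes were kept if 3 or more of the compared libraries exceeded 1 FPKM, and were tested on log2(FPKM + 0.5) with limma 3.58.1 in R 4.3.3 (moderated test with intensity trend, two-sided, Benjamini-Hochberg adjustment over all tested genes), with the replicate number as a block. Fold changes refer to this scale and understate changes of low genes. A gene that is low in 1 group could pass the filter through the other group alone, as Snord98, Snora30 and Tnfsf15 did. Il1rn and Prkg2 exceeded 1 FPKM in just 1 control each, so they too were tested because their co-culture libraries were high. The methods describe 3 biological replicates per group, and the meaning of the replicate numbers is not given in the sources used here. The numbers were taken as pairs because deviations from group means of same-numbered libraries correlated at 0.55 to 0.823 over tested genes, and those of different numbers at -0.762 to 0.306, values that centring on group means lowers. With 3 libraries against 3, an exact permutation test of 1 gene that ignores the pairs cannot go below p = 0.1. An exact test that keeps the 3 pairs is coarser still, so neither is given.

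Named are the 12 genes with the largest called difference in each direction, called members of the written lists, 7 genes that the study names as changed, receptors and ligands of called genes, and marker genes. The comparison, the members and the gene lists were chosen with earlier results of these data known. The lists are described by counts and medians and were not tested. Counts of the authors were not used here, and voom was run on the recovered fragments as an alternative, beside other pseudocounts, filters, scalings, fits and left-out pairs. The full genotype of the KPC line and 1 marker gene are not reported here.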

Additional observations from a re-analysis of the deposited data

How the results depend on the processing

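The number of called genes depended on the design of the fit. Against 157 genes with the block, 0 were called without the replicate block, 0 without the intensity trend, 0 without a filter on low values, 9 with the 12 libraries of the standard model in one fit and 26 with all 24 libraries in one fit, while voom on the recovered fragments called 361. At adjusted p limits of 0.5 and 0.01, 3636 and 2 genes were called. Leaving out 1 pair gave 119 to 967 genes, with 967 without replicate 1, and 82 to 153 of the 157 genes were then called in the same direction. Of the 24 genes with the largest differences, 0 were called without the block, 0 without the trend, 4 in the fit of 12 and 9 in that of 24 libraries, and 19 to 21 without 1 pair. Of those 24, however, only 21, 21 and 22 passed the filter without replicates 1, 2 and 3, and 21, 19 and 19 of them were called. Snord98 and Snora30 were not tested without any 1 pair, Prkg2 not without replicate 1 and Il1rn not without replicate 2. Vcan, Hgf, Acsl4, Sdc1, Nedd9 and Prkg2 were called in both of the larger fits. Of the list members, 52 were called, 0 without the block, 103 in voom and 41 to 213 without 1 pair, an alternative chosen after seeing the data. Scaling by the median of gene ratios moved the median of all tested genes from -0.01 to 0.01 on the log2 scale and gave 89 higher and 61 lower genes. The differences between models and times remained at 0 called genes in each alternative run, with or without the replicate block. The cause of these changes was not tested. None of the 66 single genes reversed its direction in any alternative run for them, but most of these runs could not show a reversal. The block, the trend and the larger fits leave the mean difference of a gene unchanged. Each of these genes also moved the same way in 3 of 3 pairs, so that leaving out 1 pair could not reverse it. Precision of low genes was limited by few fragments. With 3 pairs, the result rests on few degrees of freedom, and RNA was from pooled animals.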

Other observations

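Cell cycle genes were higher in co-culture in many pairs without passing the test. Of 32 tested mitosis and G2/M genes, 23 were higher in 3 of 3 pairs, beside 17.5% of all tested genes, with a median of 0.35 on the log2 scale. Limma called 0 of them, while voom on the recovered fragments called 6 as higher, beside 1.23% of all genes it tested. Top2a, the topoisomerase of dividing cells, named after its values were seen, was measured at 133, 28.5 and 60.7 FPKM in co-culture and at 107, 18.4 and 42.3 FPKM in controls (adjusted p = 0.0651). It was highest in pair 1 of both groups. Of 35 genes of DNA replication, 20 were higher in 3 of 3 pairs, with a median of 0.26 and 0 called by either tool.

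Other programmes held no gene called by limma. These were 26 interferon-stimulated genes with a median of -0.05, 18 complement genes with -0.09 and 1 called as lower by voom, 35 sterol genes with -0.03, 24 NRF2 targets with 0.04 and 24 adipocyte genes with -0.03. Of 13 tested genes of prostaglandin synthesis and reception, 7 were higher and 0 lower in 3 of 3 pairs, beside 17.5% and 20.7% of all tested genes. Limma called 0 of them and voom on the recovered fragments called 2 as higher. Of all genes tested by voom, 1.23% were called higher and 1.58% lower.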
